A study of Mus musculus with 6 samples.

Results

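Cytosolic ribosomal proteins are the protein components of the ribosomes that translate nuclear messages in the cytoplasm. A gene was counted as one of them when a probe set of the array carried a single gene symbol made of Rpl or Rps and a number, with at most an a, x, l or l1 after it, or the symbol Rplp0, Rplp1, Rplp2, Rpsa or Fau. This gave 49 genes on 105 probe sets, out of 18193 genes with a probe set of their own. Of the 49 genes, 26 belong to the large and 23 to the small ribosomal subunit, and 6 are paralogues whose symbol ends in l or l1. A further 28 ribosomal protein symbols, Rpl5, Rpl23 and Rplp1 among them, were carried by probe sets shared with a pseudogene or another gene and could not be measured by themselves. Each gene is described on its probe set with the highest mean signal over the 6 arrays unless another is named.

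The RNA came from mouse embryos of day 8.5, of which 3 were wild type and 3 were Tcof1+/- littermates, heterozygous for the gene of treacle. The sources used here give neither the strain nor the altered part of the allele. Total RNA of each embryo (100 ng) was amplified in 2 cycles and hybridised to an Affymetrix Mouse Genome 430 2.0 array of its own. Each probe set combines several short oligonucleotides into 1 signal in arbitrary units, and the authors had scaled every array to a trimmed mean of 150. Because RNA of entire embryos was measured in bulk, fewer cells of a type and less RNA per cell cannot be told apart.

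A ribosome is built from RNA and protein made in equal numbers by separate routes. RNA polymerase I transcribes the large ribosomal RNA precursor in the nucleolus, where treacle acts, whereas ribosomal proteins are made from ordinary messenger RNA, imported into the nucleus and assembled onto the RNA. Their messages begin with a pyrimidine-rich tract, the 5′ TOP, through which mTOR and the RNA-binding protein Larp1 adjust their translation. When ribosomal RNA runs short, free ribosomal proteins, chiefly the 5S particle of Rpl5 and Rpl11, bind the ubiquitin ligase Mdm2 and stabilise p53. The question asked here was whether the messages of the ribosomal proteins themselves differed between the genotypes.

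The transcript of the targeted gene followed the labels. On its brightest probe set Tcof1 gave 382, 393 and 387 in wild-type embryos 1, 2 and 3 and 222, 179 and 231 in heterozygous embryos 1, 2 and 3 (log2 difference -0.88, limma adjusted p = 0.0352). Its dimmer probe sets were also lower in heterozygotes, by -0.70 and -0.61, but were not called (limma adjusted p = 0.385 and 0.582). On the log2 scale the arrays correlated pairwise between 0.964 and 0.974 over the tested probe sets. The arrays of embryos 1 and 2 of each genotype were scanned on 1 day and those of embryo 3 on another. No fluidics module held both genotypes, so module and genotype cannot be told apart. The log2 difference between the 3 prime and 5 prime Gapdh control probe sets, a measure of RNA quality, was 0.84 to 1.04 in wild types and 0.68 to 0.81 in heterozygotes, without overlap. For the beta-actin controls it was 0.74 to 0.84 and 0.68 to 0.81, with overlap, and the part of these values in the differences below was not tested.

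Messages of the cytosolic ribosomal proteins were at nearly the same level in heterozygous and wild-type embryos. Of the 49 genes, 46 were bright enough to be tested, 24 of the large and 22 of the small subunit. None of the 46 was called higher or lower in heterozygotes (limma, Benjamini-Hochberg adjusted p under 0.05 over all 27022 probe sets, smallest adjusted p among the 46 genes 0.653). Over 12853 genes measured on their brightest probe set, 0.117% were called higher and 0.00778% lower. At an unadjusted p under 0.05, 2 of the 46 genes were higher (Rps27l and Rps9) and 1 was lower (Fau), where 3.00% and 3.89% of all genes were. These shares lie near the background. By probe set, 0 of 97 were called, where 0.0777% of all were called higher and 0.00370% lower, and at an unadjusted p under 0.05 4 were higher and 3 lower, where 3.01% and 3.21% of all were.

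The intervals around the differences were narrow. The 95% interval of the difference, not adjusted for the number of genes, lay within 1.25-fold of no change for 38 of the 46 genes, within 1.5-fold for 42 and within 2-fold for all 46. The 4 genes with a wider interval than 1.5-fold were Rps27l, Rps27, Rpl27a and Rpl39, and the last 3 were read on dim probe sets. The median standard error of a log2 difference was 0.059 over the ribosomal protein genes and 0.15 over all genes. Over the 398 other probe sets among the brightest 1% of the array it was also 0.059.

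**Figure D1:**
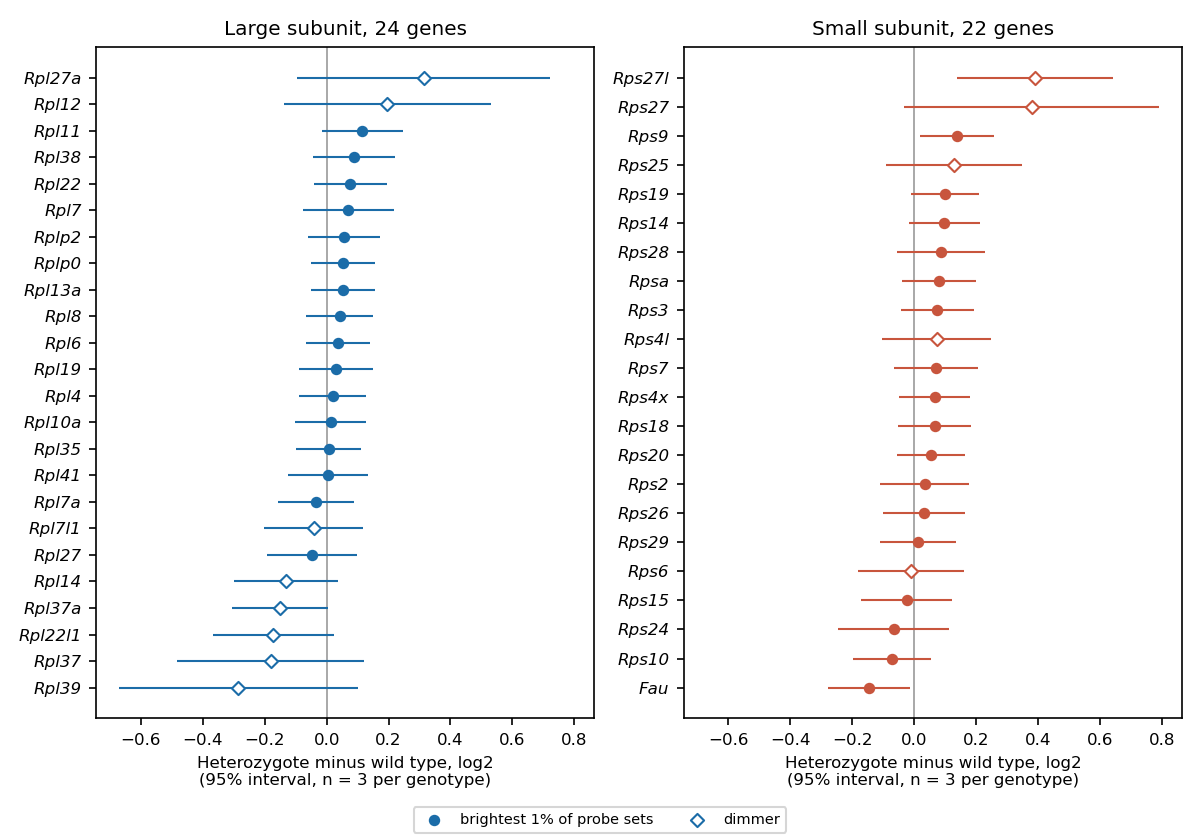
Log2 difference, heterozygote minus wild type, of the 24 large and 22 small subunit genes that were tested, with the 95% interval from limma (3 embryos per genotype). Filled circles are probe sets among the brightest 1% of the array and open diamonds are dimmer ones. Most genes lie within 0.1 of 0, and Rps27l and Rps27 lie highest.

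On the brightest probe set of each gene and under the authors' scaling, the small subunit had a higher median difference than the large subunit. Of the 22 small subunit genes 17 had a positive and 5 a negative difference, with a median of 0.068 on the log2 scale. Of the 24 large subunit genes 16 were positive and 8 negative, with a median of 0.025. The median was 0.0047 over all tested probe sets and -0.012 over all genes. After quantile normalization 14 of 22 small subunit genes were positive (median 0.015) and 8 of 24 large subunit genes were (median -0.019), so the direction of the large subunit depended on the scaling. With the mean of all tested probe sets of a gene in place of the brightest, the medians of both subunits were 0.038, so their order depended on the choice of probe set. With array medians made equal, 16 small and 13 large subunit genes were positive.

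A like tilt was present in the other bright probe sets of the array, some of which also read ribosomal proteins. Of the 398 other probe sets among the brightest 1% of the array, 296 were positive, with a median of 0.046. After quantile normalization 220 were positive, with a median of 0.0084. Of the 398, 67 were shared between a ribosomal protein symbol and other genes and were not left out. Rps3a1, a small subunit protein gene outside the symbol rule, was also among them. Groups did not overlap for 8 of the 46 ribosomal protein genes with heterozygotes higher, Rps27l, Rps9, Rps27, Rps19, Rpl11, Rpl22, Rplp0 and Rpl13a, and for 2 with heterozygotes lower, Fau and Rpl37a. Over all genes 5.70% had heterozygotes above every wild type and 7.31% had them below. Among the 398 other bright probe sets the counts were 63 and 9. By probe set, 12 of the 97 for ribosomal proteins were apart with heterozygotes higher and 4 with them lower, where 6.0% and 6.18% of all tested probe sets were.

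By embryo, the median deviation of the small subunit genes from each gene's own mean was -0.060, 0.030 and -0.058 in wild-type embryos 1, 2 and 3 and 0.033, 0.017 and 0.029 in heterozygous embryos 1, 2 and 3. Wild-type embryo 2 thus lay among the heterozygotes, and the genotypes overlapped. For the large subunit the medians were -0.021, 0.012 and -0.013 in wild types and 0.022, 0.014 and 0.0055 in heterozygotes, again with wild-type embryo 2 among the heterozygotes. The other bright probe sets gave -0.048, 0.017 and -0.027 in wild types and 0.026, 0.027 and 0.023 in heterozygotes. Without wild-type embryo 2 the median difference of the large subunit was 0.047, against 0.025 with it, and without heterozygous embryo 1 it was 0.013. Within the first scan day the medians were 0.026 for the large and 0.051 for the small subunit, and within the second day they were 0.0081 and 0.081.

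**Figure D2:**
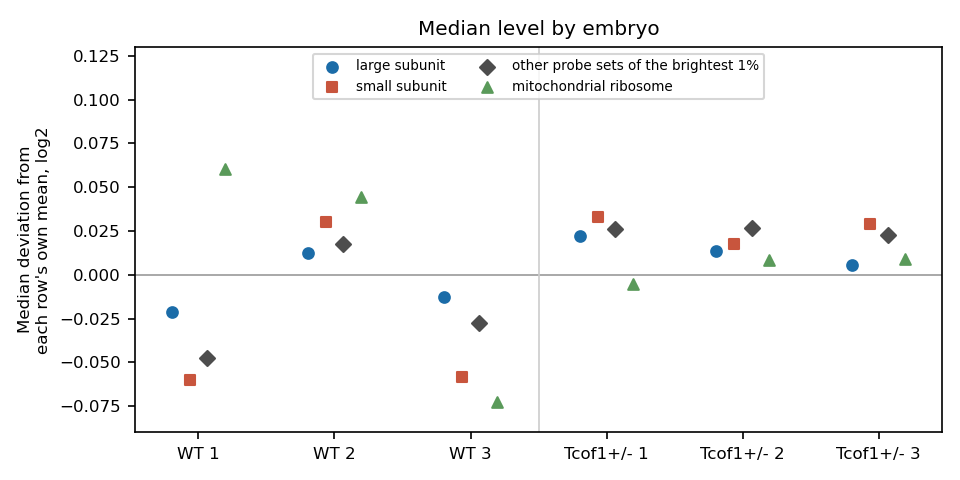
Median deviation of each gene group from each gene's or probe set's own mean over 6 arrays (log2), for wild-type (WT) embryos 1 to 3 and Tcof1+/- embryos 1 to 3. The ribosomal protein groups and the other bright probe sets were low in wild-type embryos 1 and 3 and were near the heterozygotes in wild-type embryo 2.

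Most of these probe sets were among the brightest of the array. Of the 46 tested genes 33 were read on a probe set in the brightest 1%, that is with a mean signal over 3632. The highest signal of any ribosomal protein, 10556 for Rpsa, the laminin receptor and small subunit protein, was 74.6% to 81.0% of the highest signal on the same array, and 3 probe sets of the array had a higher mean. The summarised signals do not show whether single probes had reached the top of the scanner range, where a difference would be compressed, and this was not tested. For the 33 brightest genes the median size of the difference was 0.056, and for the 13 dimmer ones it was 0.17, while their median standard errors were 0.053 and 0.098. None of the 13 dimmer genes was called either, and 6 of them were positive and 7 negative.

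**Figure D3:**
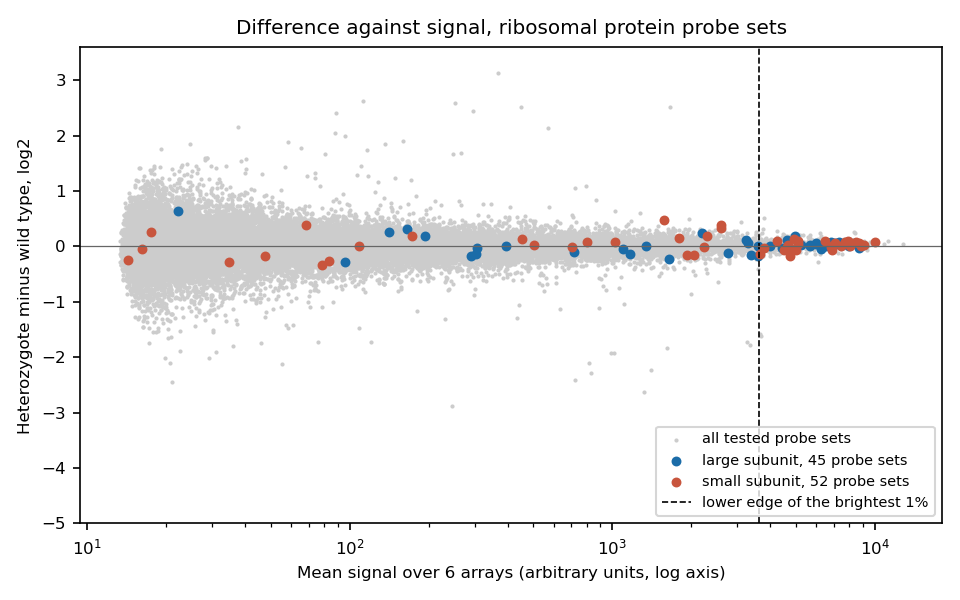
Log2 difference, heterozygote minus wild type, against mean signal over 6 arrays (log axis) for all tested probe sets (grey) and for 45 large and 52 small subunit probe sets. Most ribosomal protein probe sets lie to the right of the dashed line, the lower edge of the brightest 1%, close to 0.

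The gene with the largest difference was Rps27l, a paralogue of the small subunit protein gene Rps27 and a known target of p53 whose protein also binds Mdm2. Its brightest probe set (1435429_x_at) gave 2575, 1872 and 2351 in wild-type embryos 1, 2 and 3 and 2765, 3241 and 2853 in heterozygous embryos 1, 2 and 3. All heterozygotes lay above all wild types, and the means were 2266 ± 359 and 2953 ± 253 (SD, n = 3 per genotype). The difference was 0.39 (SE 0.11, limma adjusted p = 0.653), and 0.26 without wild-type embryo 2.

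The other probe sets of Rps27l gave the same order. On the next brightest (1450925_a_at) wild types were at 2462, 2208 and 2196 and heterozygotes at 2955, 3001 and 2716, a difference of 0.34 (SE 0.071, limma adjusted p = 0.313). On the dimmest (1423254_x_at) wild types were at 1351, 1267 and 1300 and heterozygotes at 1874, 2003 and 1627, a difference of 0.48 (SE 0.085, limma adjusted p = 0.145). The genotypes did not overlap on any of the 3 probe sets, and none passed over all probe sets. Its dimmest probe set had the smallest adjusted p among the 97 tested ribosomal protein probe sets. The 3 probe sets read the same embryos and are not separate evidence. From the brightest to the dimmest, the differences were 0.45, 0.35 and 0.57 within the first scan day, and 0.28, 0.31 and 0.32 within the second.

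**Figure D4:**
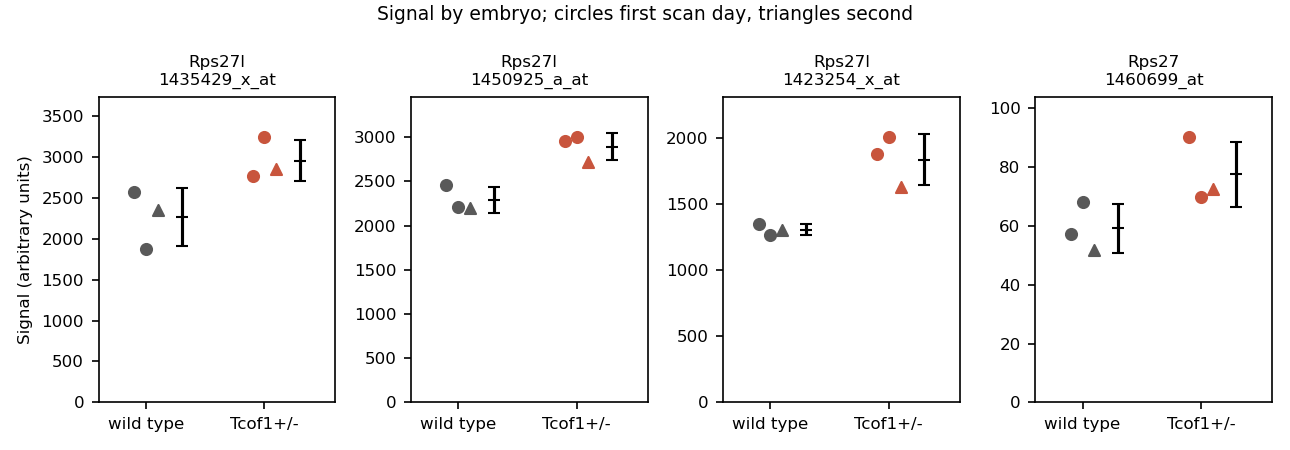
Signal by embryo for the 3 probe sets of Rps27l and the probe set of Rps27, wild type in grey and Tcof1+/- in red, with circles for the first and triangles for the second scan day and the mean ± SD (n = 3) beside them. Heterozygotes lie above wild types in each panel, by about 1.3-fold to 1.4-fold for Rps27l. The probe set of Rps27 is dim.

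Rps27 itself, whose zinc-finger protein is a standard part of the small subunit, was read on a dim probe set. Its signal was 57.1, 68.2 and 51.9 in wild types and 90.1, 69.7 and 72.5 in heterozygotes. The genotypes did not overlap, although wild-type embryo 2 and heterozygous embryo 2 lay close together. The difference was 0.38 (SE 0.18, limma adjusted p = 0.801), with a 95% interval from -0.03 to 0.79. The mean signal of 68.2 was the lowest of any tested ribosomal protein gene. How well this probe set measures the message of Rps27 was not tested.

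The sequences around the annotated starts of this pair, and of other genes described here, are given for their pyrimidine-rich stretches. Each runs from 70 bases before to 30 after the start, in the RefSeq annotation of GRCm38.p6, and capitals mark the letters CTTTC, part of many 5′ TOP tracts.
Rps27l (chr9:66946016-66946115, + strand): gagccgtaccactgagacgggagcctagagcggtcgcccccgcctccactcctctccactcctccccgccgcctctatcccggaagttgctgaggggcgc
Rps27 (chr3:90213619-90213718, - strand): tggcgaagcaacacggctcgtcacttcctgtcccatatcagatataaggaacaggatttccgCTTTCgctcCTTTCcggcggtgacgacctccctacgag
Rps9 (chr7:3703971-3704070, + strand): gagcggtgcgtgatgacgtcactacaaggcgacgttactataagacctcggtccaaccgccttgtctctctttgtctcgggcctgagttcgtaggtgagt
Fau (chr19:6057877-6057976, + strand): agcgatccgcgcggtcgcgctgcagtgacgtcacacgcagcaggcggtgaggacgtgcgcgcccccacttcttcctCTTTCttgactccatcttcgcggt
Rpl22 (chr4:152325656-152325755, + strand): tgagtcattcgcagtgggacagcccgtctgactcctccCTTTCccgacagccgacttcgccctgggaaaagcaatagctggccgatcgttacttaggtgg
Rpl22l1 (chr3:28805438-28805537, + strand): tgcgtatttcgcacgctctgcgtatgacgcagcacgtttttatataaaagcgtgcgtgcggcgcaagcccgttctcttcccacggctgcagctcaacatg

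The Rps27 window held CTTTC in 2 places, those of Fau and Rpl22 in 1, and those of Rps27l, Rpl22l1 and Rps9 in 0. The match of Rpl22 and the earlier match of Rps27 lay before the annotated starts. Rps27l and Rpl22l1 held other runs of pyrimidines near the start, so these letters alone do not separate the paralogues. Start windows were found for 43 of the 49 genes. CTTTC stood on the gene's own strand in 17 of these 43 windows (39.5%) and in 12.4% of 27025 windows of all genes, and on the opposite strand in 4 (9.30%) and 11.5%. The p53 half-site, searched in the 300 bases around each start, was in 1 of the 43 windows (2.33%), that of Rps27, and in 8.37% of all. Most of the 300 bases lie before the start. Sites farther into a gene were not searched, for Rps27l as for the others. A match of letters is a description and does not show a start or a bound site.

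Other small subunit genes differed by less. Rps9, a core protein of the small subunit, gave 4746, 4646 and 4636 in wild types and 5328, 5193 and 4917 in heterozygotes, without overlap. Its difference was 0.14 (SE 0.053, limma adjusted p = 0.774), and its dimmer probe sets differed by 0.090 and 0.0033. Rps19, the gene most often mutated in Diamond-Blackfan anaemia, gave 5013, 4875 and 4884 against 5237, 5228 and 5359, without overlap and with a difference of 0.099 (SE 0.049, limma adjusted p = 0.804). Rps14, lost in the 5q- form of myelodysplasia, differed by 0.096 and its other probe set by -0.015. Rps3 and Rps7, whose proteins can also bind Mdm2, differed by 0.075 and 0.071, and by 0.043 and 0.0049 without wild-type embryo 1. Rps6, the substrate of S6 kinase, differed by -0.011 with a 95% interval from -0.18 to 0.16.

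Among the small subunit genes that were lower in heterozygotes, Fau had the smallest p. Fau encodes a ubiquitin-like protein fused to a small subunit protein, and the fusion is cut after translation. It gave 3784, 4033 and 3669 in wild types and 3467, 3560 and 3350 in heterozygotes, with heterozygotes at 90.3% of the wild-type mean. The genotypes did not overlap, and the difference was -0.15 (SE 0.059, limma adjusted p = 0.781). Within the first scan day it was -0.15, and within the second -0.13. Rps10 (-0.073), Rps24 (-0.066) and Rps15 (-0.025) followed, each with overlapping genotypes. The paralogue Rps4l differed by 0.073.

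In the large subunit, Rpl11, which forms the 5S particle with Rpl5, was the bright gene with the largest positive difference. It gave 4366, 4623 and 4342 in wild types and 4665, 4694 and 5090 in heterozygotes. The groups were apart by the small gap between wild-type embryo 2 and heterozygous embryo 1, and the difference was 0.12 (SE 0.058, limma adjusted p = 0.810). Within the first scan day it was 0.059, and within the second 0.23. The stalk proteins, which bring elongation factors to the ribosome, differed by 0.054 for Rplp0, 0.056 for Rplp2 and 0.20 for Rpl12 at the stalk base. Rplp0 gave 6978, 6899 and 6992 against 7066, 7422 and 7175, so its groups were apart by a narrow gap, while those of Rplp2 and Rpl12 overlapped. After quantile normalization the difference of Rplp2 had the opposite sign (-0.0048).

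Rpl22 and its paralogue Rpl22l1, which can take its place in the ribosome, had differences of opposite sign, and neither passed. Rpl22 gave 6836, 7224 and 7227 in wild types and 7260, 7836 and 7362 in heterozygotes, a difference of 0.077 (SE 0.052, limma adjusted p = 0.850). Rpl22l1 gave 3402, 3911 and 4155 against 3192, 3729 and 3249, with overlap and a difference of -0.17 (SE 0.087, limma adjusted p = 0.810). Rpl7l1, a paralogue with a part in assembly of the large subunit, differed by -0.042, and its other probe sets by -0.11 and -0.034.

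Rpl37a had the smallest p among the large subunit genes. It gave 3531, 3854 and 3336 in wild types and 3311, 3042 and 3297 in heterozygotes, which were all below the wild types, and its difference was -0.15 (SE 0.069, limma adjusted p = 0.793). Its other probe sets differed by -0.23 (limma adjusted p = 0.774) and -0.14 with overlapping genotypes, so all 3 were negative. Within the first scan day it was -0.22, and within the second -0.017. Rpl14, Rpl37 and Rpl39, whose protein lines the exit tunnel, differed by -0.13, -0.18 and -0.29, with overlapping genotypes. Rpl37 had a mean signal of 290 and differed by -0.025 within the first scan day and by -0.49 within the second. Rpl39 was dim, at 96.7, 118 and 102 in wild types and 103, 71.6 and 86.5 in heterozygotes. Rpl38, needed for translation of Hox messages in the axial skeleton, differed by 0.088 with a 95% interval from -0.04 to 0.22. Rpl27a, also dim, differed by 0.31 (SE 0.18), at 0.47 within the first scan day and 0.0087 within the second, and by 0.097 without wild-type embryo 2.

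The 3 genes that were too dim to test were Rpl3l, a paralogue of muscle, Rpl39l, a paralogue of testis, and Rps16. Rpl3l lay between 1.48 and 11.4 and Rpl39l between 8.44 and 17.7 over the 6 arrays, and their mean log2 signals were below the filter, which corresponds to a signal of 13.2. The single probe set of Rps16 lay between 0.272 and 0.575, although Rps16 is part of every small subunit, and it gives no measure of that gene here.

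Probe sets of the same gene did not always agree. Of the genes with several tested probe sets, Rpl35, near the exit tunnel, had the widest range, from 0.0036 to 0.63. Its 5 bright probe sets differed by 0.035 or less, and the highest value came from a probe set at 6.81 to 29.4 (limma adjusted p = 0.853). Rps24 followed, with 6 probe sets from -0.28 to 0.18. For Rps27l, Rpl37a and Rpl7l1 all 3 probe sets of the gene had the same sign, as they had for Rpl7, Rpl22, Rps9, Rps28 and Rps29. The tested probe sets of Rpl35 and Rpl41 were likewise all positive. Of the 105 probe sets 40 carry the suffix x, which marks probes that may match other sequences, and 15 of the 49 genes are described on such a probe set, Rps27l among them. Ribosomal protein genes have many processed pseudogene copies, and signal from them cannot be told apart from that of the gene. The 110 probe sets shared between a ribosomal protein symbol and other genes gave a like picture, with 68 positive and 37 negative among 105 tested, a median of 0.031 and 0 called.

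**Figure D5:**
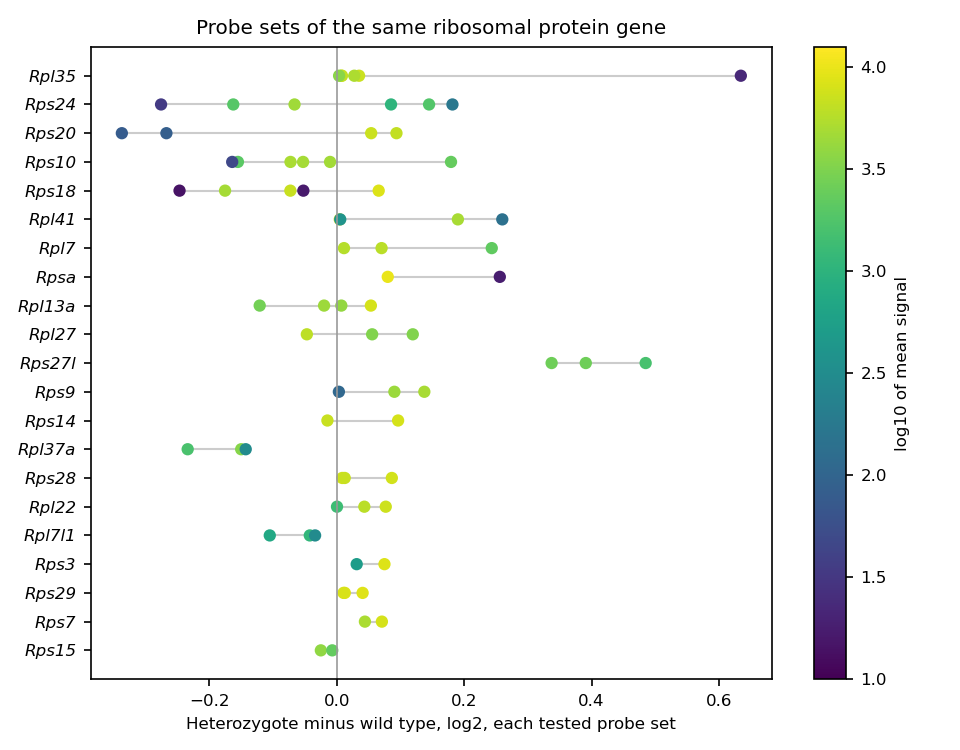
Log2 difference, heterozygote minus wild type, of every tested probe set of the genes that had several, coloured by mean signal (log10). For Rpl35 and Rps20, dim probe sets (dark) lie farthest from the other probe sets of their gene, but this does not hold for every gene, such as Rps10. The 3 probe sets of Rps27l lie together between 0.34 and 0.48.

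Genes that work with the ribosomal proteins were read from lists of related function. Of 16 tested genes whose messages also start with a 5′ TOP, 14 were positive and 2 negative, with a median of 0.082 and 0 called. Of these 16, 11 were read in the brightest 1%, where 296 of the 398 other probe sets were positive. The 16 include Rps3a1 (0.049), itself a small subunit protein gene. Btf3, of the nascent-chain complex, had the smallest p (0.21, SE 0.073, limma adjusted p = 0.731), and Eif4b was the lower one with the smallest p (-0.18, limma adjusted p = 0.799). Of 13 tested chaperones and nuclear carriers of ribosomal proteins, 7 were positive and 6 negative, with a median of 0.041. The importin gene Tnpo1 had a mean of 1595 among wild types against 1222 among heterozygotes (-0.39, SE 0.079, limma adjusted p = 0.305). Rpf2, which with Rrs1 delivers the 5S particle, had the smallest p among the positive ones (0.11, limma adjusted p = 0.829). Of 7 tested genes of the mTOR branch 5 were positive and 2 negative, with a median of 0.023, Mtor at 0.13 and Rptor at -0.16. No gene of these lists was called.

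Among the partners of free ribosomal proteins, Mdm2 differed by 0.40 (SE 0.12, limma adjusted p = 0.692), Mdm4 by 0.087 and Nop53, which holds Rpl11 in the nucleolus, by -0.040. Of 12 tested ribosomal protein genes mutated in Diamond-Blackfan anaemia, 9 were positive and 3 negative, with a median of 0.043 and 0 called. For comparison, the 76 genes of the mitochondrial ribosome were 36 positive and 40 negative, with a median of -0.0070 and 0 called. Whether the cytosolic and mitochondrial sets differed was not tested.

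The make-up of the embryos was read from marker genes, to be set beside these values. The summed signal of 9 primitive erythroid genes was 5858 to 13849 in wild types and 316 to 11342 in heterozygotes, with Nfe2 and Epb42 below the filter and heterozygous embryo 1 lowest. Of 8 yolk sac endoderm genes the sum was 1913 to 9963 and 856 to 15796. Of 4 trophoblast and decidua genes it was 48.6 to 97.7 and 37.9 to 84.3, with Tpbpa, Prl7a2 and Prl8a2 below the filter. Of 7 neural tube genes the sum was 1701 to 2005 in wild types and 1296 to 1582 in heterozygotes, without overlap, and of 7 heart genes it was 9749 to 11595 and 10167 to 13001. The part of these differences in the ribosomal protein values was not tested. Without heterozygous embryo 1 no ribosomal protein gene was called either, and the median of the small subunit was 0.062.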

How the data were processed

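The deposited values are linear intensities, 1 for each probe set of an array, computed in GCOS per the submitters' processing notes; the sources used here do not name its algorithm or settings. Every array had a trimmed mean of 150 (2% at each end), and that scaling was kept. The other deposited files are instrument records, read for scan day and fluidics module. Of 45101 probe sets, 64 controls were left out. Names came from the platform annotation: 34945 probe sets had 1 symbol, 932 several and 9160 none.

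Signals were log2-transformed after adding 1.87, their 10th percentile. Probe sets in the lowest 40% by mean log2 signal, which corresponds to a signal under 13.2, were not tested. Differences are heterozygote minus wild type on this scale, which understates the change of dim genes. They were fitted with limma 3.58.1 (lmFit, then eBayes with trend) under R 4.3.3 over 27022 probe sets, two-sided, with Benjamini-Hochberg adjustment. The fit was also run on simulated data with known changes, and the outcome is not reported here. Precision is limited by 3 arrays per genotype.

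The members and lists were chosen with earlier results of these data known. The genes named were any that passed, the paralogues, in each subunit the 5 higher and 5 lower with the smallest p, the Mdm2-binding and stalk proteins, the 2 genes whose probe sets differed most, and in each other list the member with the smallest p in each direction. Rpl7, Rpl13a, Rpl41, Rps20, Rps28, Rps29, Rpsa, Rps3a1 and the 3 untested genes were named after their values were seen. Alternatives covered the pseudocount, normalization, filter, variance prior, array weights, blocks, each array left out and the probe set per gene. The first scan day alone was added after seeing the data.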

Additional observations from a re-analysis of the deposited data

How the results depend on the processing

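No ribosomal protein gene was called in either direction under any alternative run, with 0 higher and 0 lower each time, and this includes each array left out in turn, scan day as a block and the replicate block (0 and 0, medians 0.025 and 0.068). Same-numbered embryos did not deviate together (correlations of -0.11 to -0.024). Deviations from means of 3 arrays cannot decide whether the numbers pair the samples, and the fit without pairing was kept. With quantile normalization the median difference was -0.019 for the large and 0.015 for the small subunit, and with equal array medians the large subunit was at 0.0096. Without the brightest 1% of probe sets, which left 13 genes, the medians were -0.14 and 0.13. When each gene was read as the mean of its probe sets, the large and the small subunit were both at 0.038. Leaving out 1 array gave 0.013 to 0.047 for the large and 0.042 to 0.097 for the small subunit. Of 27 genes named, 23 kept the sign of their difference under all 17 settings. The exceptions were Rpl35, Rplp2, Rps15 and Rps6. The filter, variance prior and block settings leave a difference itself unchanged, so a sign could not turn there. Many of the 27 were also chosen for a small p in these same data, so the count is not a test of them. Leaving out 1 array moved the difference of 21 of the 27 by over 1.5 times at least once. For Rps27l the adjusted p ranged from 0.522 to 0.998 on the brightest probe set, 0.244 to 0.998 on the next and 0.0751 to 0.864 on the dimmest. With 3 embryos per genotype, a difference of the size seen for Rps27l was not called over all probe sets.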

Other observations

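The median deviation of the ribosomal protein genes by embryo spanned a narrow range, and a small share of the other genes had a like pattern. Over the 6 arrays, 88 of 12807 other tested genes had a Pearson correlation above 0.9 with it, and Cacna1d, Nme2 and Fscn1 were highest, each at 0.99. These values describe 6 arrays that share 1 scaling step and are not read as a relation between the genes.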
